A study of Mus with 8 samples.

Results

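The arrays of this circRNA study also carry 50 probes for linear transcripts, mostly messenger RNAs of protein-coding genes, each printed as 10 spots per array, and these probes are described here in tissue of mice with and without traumatic heterotopic ossification (HO), the growth of bone in soft tissue after injury. The members were found by probe name, as the spots that are neither circRNA probes nor circRNA, negative or unnamed custom controls and whose listed target is a transcript. They make up 50 of the 14286 circRNA and linear probes, and 44 of them could be named through RefSeq. Male C57BL/6 mice, 15 to 17 weeks old at harvest, were compared in groups of 4. In the HO group the Achilles tendon was cut and the dorsal skin was burned, while the control group had a skin incision only, so tenotomy and burn cannot be told apart. The labels call the tissue Achilles tendon in control and heterotopic ossification tissue in HO. Samples date from 9 weeks after the operation and, by the methods, extended from the heel bone into calf muscle. Each of the 8 arrays held the RNA of 1 sample, treated with RNase R in both groups.

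RNase R is an exonuclease that digests linear RNA from its free end and leaves most circular RNA, which has no end. Where a linear probe on such an array reads its own transcript, it therefore reads what was left of it after digestion. The amount of the transcript in the tissue and the extent of its digestion cannot be told apart on these arrays, and neither can fewer cells of a type and less RNA per cell. The transcripts are a mixed set rather than a pathway. They include Hspb7, a small heat shock protein of heart and skeletal muscle, enzymes and regulators of fat and sugar use, several immune genes, the housekeeping gene Actb, and genes known mainly from brain, nose, skin or testis. No probe sequence was analysed here.

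Before normalization between arrays, the median log2 processed signal over the linear probes exceeded that over the circRNA probes by 0.17 ± 0.19 (SD, n = 4) on the HO arrays, with a range from -0.10 to 0.32. The difference was 0.05 ± 0.08 (SD, n = 4) on the control arrays, with a range from -0.06 to 0.11, and the groups overlapped. No array of undigested RNA was analysed, so the extent of depletion was not measured. Of the 50 probes, 35 were well above background on all 8 arrays and 2 on none. Per array, between 36 and 44 of the 50 were well above background in HO and between 42 and 48 in control, and the corresponding share of circRNA probes was 69.6% to 85.1% in HO and 87.2% to 97.2% in control. No linear spot was saturated.

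Some limits of the arrays bear on these probes. Being well above background does not show that a probe read its own transcript, since between 3 and 13 of the 15 negative control probes also had that mark on an array. After quantile normalization the median negative control probe lay at 2.89 ± 0.59 (SD, n = 4) in HO and 2.25 ± 0.33 (SD, n = 4) in control on the log2 scale, and HO 1, HO 2 and HO 4 each lay above all control arrays. The brightest negative control probe lay between 5.98 and 7.47 on an array. Of the 44 tested probes given by name, 21 were below it on all 8 arrays, among them Carhsp1, Chgb, Bambi, BC057074, Gabrg1, Mbp and Dnajc11, 7 of the 12 rises. The part of background in their changes was not tested. The slide's first row carries the HO arrays and its second row the control arrays, so row and group cannot be told apart. HO 3 was scanned apart from the other arrays, and it was the lowest HO array for 8 of the 12 rises below. Probes for tendon, cartilage and bone marker genes are not among the members (0 of the 65, 47 and 35 genes listed for tendon and matrix, bone and cartilage, and fat and vessel), so the tissue labels were not checked against them.

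A probe was tested if 4 or more arrays had it well above background. Of the 45 linear probes tested, 12 were higher and 5 were lower in HO lesions at an adjusted p of at most 0.05 (limma, Benjamini-Hochberg adjustment over all 12858 probes tested). The largest fall was that of Hspb7, about 8.11-fold, and H2-Q7, Gpi1 and Ppara fell too. Among the rises were Tm9sf1, Carhsp1, Duox1 and Hyal3. These counts have to be read against the whole array. Over all probes tested, the same rule called 14.2% higher and 13.8% lower, 28.0% in all, and the linear probes called were 26.7% higher and 11.1% lower, 37.8% in all. The median log2 fold change was 0.23 over the linear probes and 0.05 over all probes, and the median size of the change was 0.42 in both. At the methods' threshold of 2-fold with an unadjusted p of 0.05, 6 linear probes were higher and 3 lower, 9 in all, against 5.13%, 8.60% and 13.7% of all probes. In 21 of the 45 the groups did not overlap (15 with HO above and 6 with HO below), against 16.5%, 14.3% and, in all, 30.8% of all probes. Leaving out control 4 brought the 17 calls down to 11, and leaving out HO 3 brought them to 25. The share called over all probes moved too, from 28.0% to 14.2% and 40.9%. With 75th percentile scaling in place of quantile normalization, 10 were higher and 9 lower, so that 52.6% of the calls were higher against 70.6% as reported. The share called over all probes was then 35.8%. Median scaling gave 17 higher and 6 lower (73.9% higher), with 38.2% of all probes called. Scaling to the linear probes gave 9 and 6 (60% higher), with 24.8% of all probes called. Of the 17 genes called with quantile normalization, 10 kept an adjusted p under 0.05 and their direction in all of the 25 refits in which they were tested. At the 2-fold threshold, 7 of these 10 remained, without Ppara, Hyal3 and Duox1. The 2-fold counts moved both ways with the processing. Normexp at either offset (16 or 50) left 0 higher and 2 lower, and omitting background correction left 1 and 2. Arrays scaled by their 75th percentile gave 4 and 7. Median scaling instead raised the counts to 9 higher and 3 lower. Dropping control 1 gave 9 and 4, dropping HO 3 gave 8 and 3, and dropping control 3 gave 4 and 2. The matching 2-fold shares of all probes are not given for these settings.

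**Figure D1:**
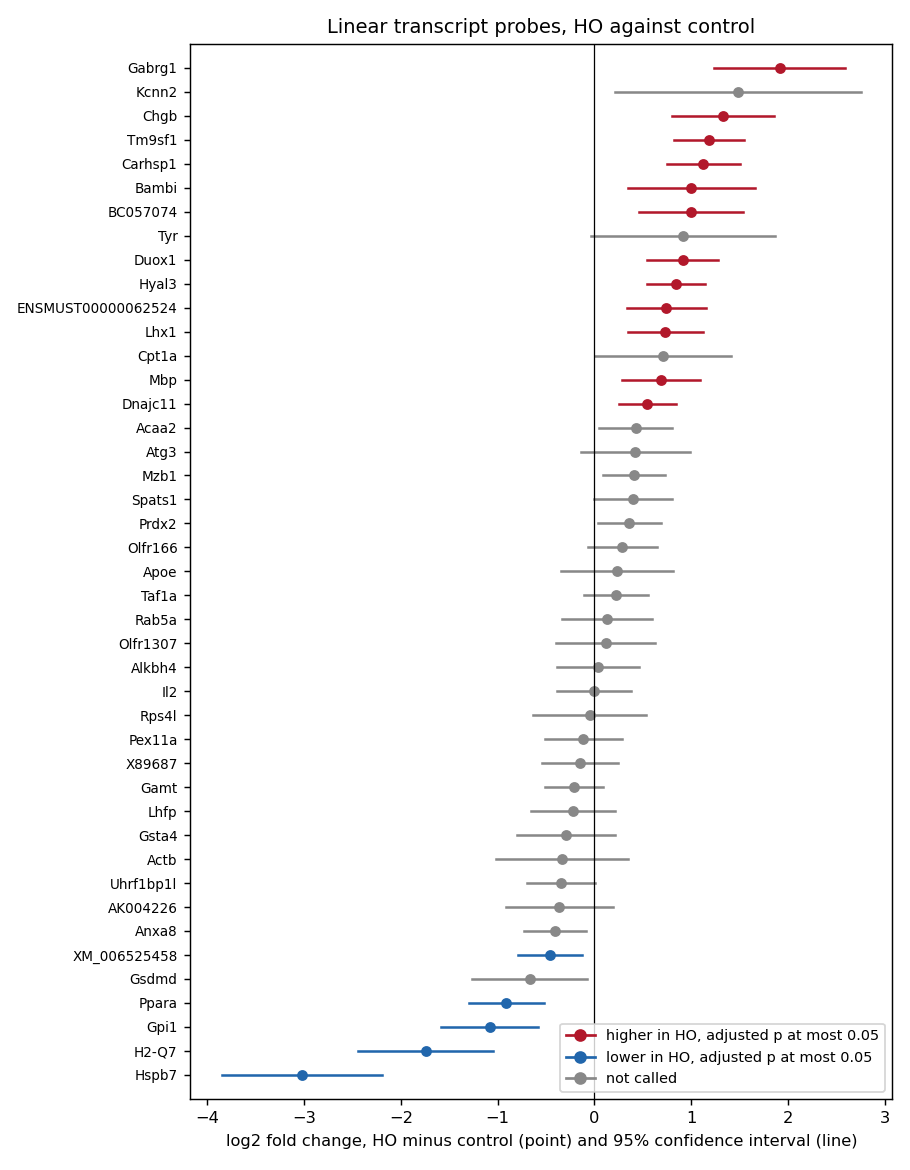
Log2 fold change of 43 of the 45 tested linear probes, HO minus control, with its 95% confidence interval from limma (4 arrays per group). Hspb7 stands apart at -3.02, 12 probes in red are higher and 5 in blue are lower at an adjusted p of at most 0.05, and the 26 probes in grey were not called.

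Hspb7 was the 1 member on the list of skeletal muscle genes, and it fell, with every HO array below every control array. It belongs to the small heat shock proteins, chaperones that in striated muscle protect the actin and filamin scaffold of the fibre. The log2 normalized intensity was 10.03, 10.73, 10.70 and 10.81 on control arrays 1 to 4. On HO arrays 1 to 4 it was 6.82, 6.93, 8.22 and 8.22. The 4 HO values lay far below the control values, with HO 1 and HO 2 lowest, and these 2 were also below the brightest negative control probe of their array (7.12 and 7.47). The log2 fold change was -3.02 (standard error, SE, 0.37, limma adjusted p = 0.0032), with a 95% confidence interval from -3.85 to -2.19. It lay between -3.21 and -2.76 with each array left out and between -3.21 and -2.31 over all alternatives. Only 5 of the 12858 probes tested, 0.0389%, fell further. That Hspb7 falls was known before this description was made, so its place is not separate support.

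A ratio within an array does not depend on how arrays are scaled, though background can enter it. The pairs of genes set against each other here and below were chosen after the values were seen, so their ratios are a description without a test. On the signal before normalization, the log2 ratio of Hspb7 over Actb was 2.03 ± 0.64 (SD, n = 4) in HO and 4.17 ± 0.11 (SD, n = 4) in control. All 4 HO ratios (1.16 to 2.57) lay below all 4 control ratios (4.09 to 4.33), a difference of -2.15. Actb, the cytoskeletal beta-actin gene and the member on the housekeeping list, measured 5.75, 5.92, 6.28 and 6.27 on control arrays 1 to 4 and 5.83, 4.86, 6.39 and 5.80 on HO arrays 1 to 4. Its groups overlapped, with HO 2 lowest, and its log2 fold change of -0.33 was not called (95% confidence interval -1.02 to 0.35, adjusted p = 0.43 in limma). The change was -0.04 without HO 2, -0.55 without HO 3 and -0.61 with 75th percentile scaling, not called in any of them.

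**Figure D2:**
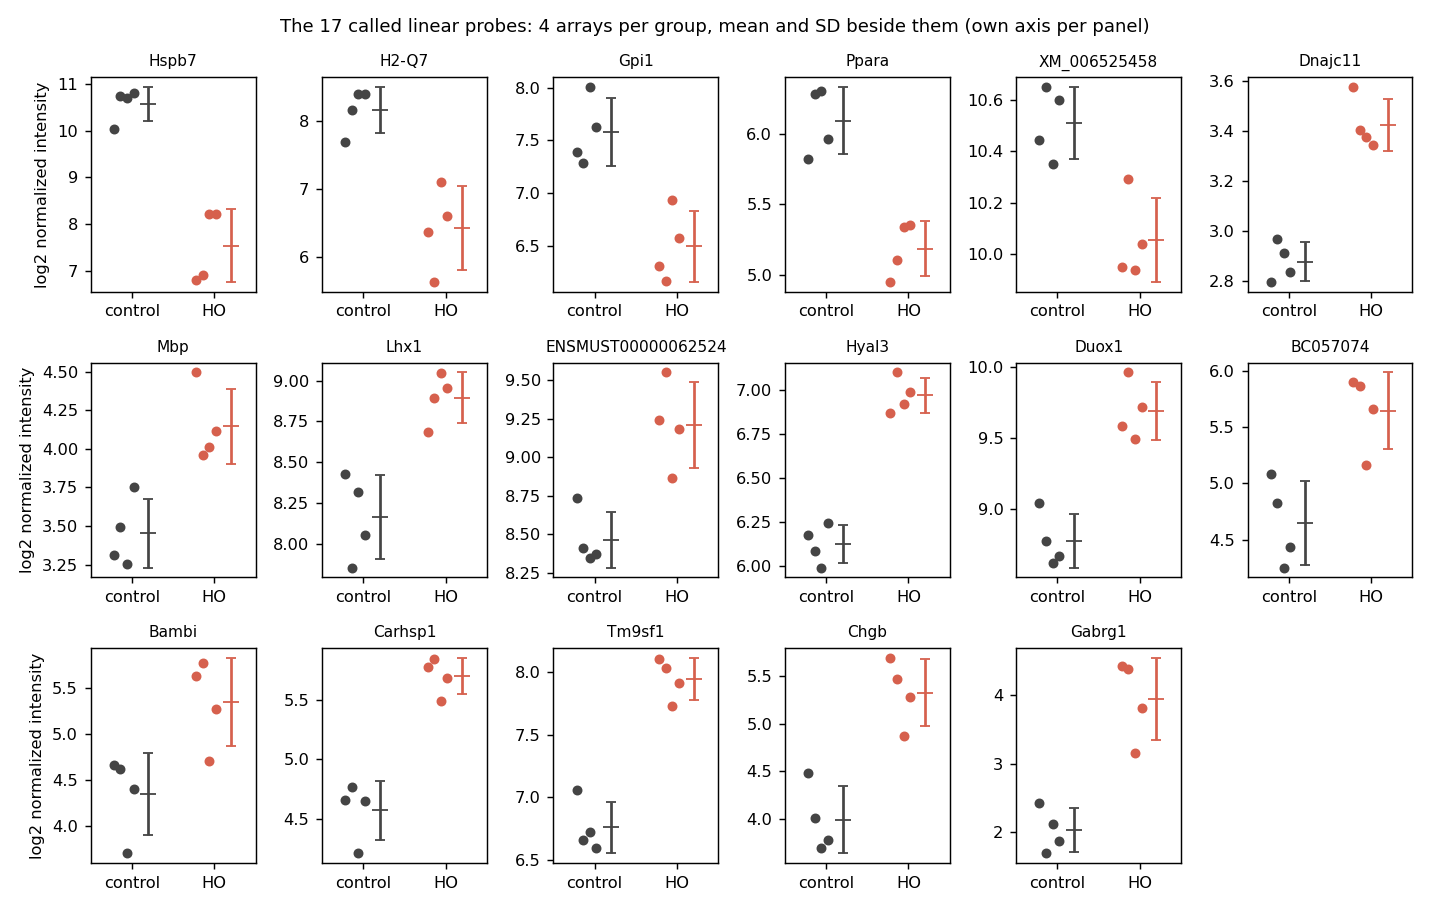
Log2 normalized intensity of the 17 called linear probes on the 4 control and 4 HO arrays, each probe on its own axis, with the group mean and SD beside the points. The groups do not overlap for any of the 17, and the gap is widest for Hspb7 (10.03 or above in control, 8.22 or below in HO).

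The counts by role given from here on are of small groups made after the genes were seen, and over all probes 14.2% were called higher and 13.8% lower, so nothing particular to a role is read from them. Among the 6 genes of energy metabolism, 2 fell, none rose and 4 were not called. Ppara encodes the nuclear receptor that switches on fatty acid oxidation genes. It measured 5.82, 6.28, 6.31 and 5.96 in control and 4.95, 5.11, 5.33 and 5.35 in HO, in the order of arrays 1 to 4. All HO values lay below all control values, and the log2 fold change was -0.91 (SE 0.17, limma adjusted p = 0.0079). Ppara lay below the brightest negative control probe on 7 of the 8 arrays, all HO arrays included, and the part of background in its fall was not tested. With normexp and an offset of 50, which compresses changes in dim signals, it was -0.34 and still called.

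Gpi1 encodes glucose-6-phosphate isomerase, an enzyme near the start of glycolysis. It measured 7.39, 7.28, 8.01 and 7.63 in control and 6.31, 6.16, 6.93 and 6.57 in HO. HO 1, HO 2 and HO 4 lay below the brightest negative control probe of their array (7.12, 7.47 and 6.81). The part of background in the fall was not tested. The log2 fold change of Gpi1 was -1.08 (SE 0.22, limma adjusted p = 0.010), and no HO array reached the lowest control array. With normexp and an offset of 50 it was -0.60, still called. The log2 ratio of Gpi1 over Actb overlapped between the groups, at 0.87 ± 0.47 in HO and 1.37 ± 0.19 in control (SD, n = 4), a difference of -0.50. Over Apoe, the same ratio was -1.79 ± 0.16 in HO and -0.28 ± 0.07 in control (SD, n = 4), with no overlap.

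The 2 members that act in mitochondrial fat oxidation, Cpt1a and Acaa2, had higher means in HO but were not called. Cpt1a, which loads long-chain fatty acids for transport into mitochondria, measured 6.85, 6.74, 5.88 and 6.27 in control and 7.59, 7.55, 6.40 and 7.05 in HO. The groups overlapped, and its log2 fold change of 0.71 was not called (95% confidence interval 0.01 to 1.41, adjusted p = 0.12 in limma). Acaa2, the thiolase of the last step of mitochondrial fatty acid oxidation, measured 5.70, 5.83, 5.64 and 5.28 in control and 6.23, 6.06, 5.83 and 6.04 in HO. The groups did not overlap, though HO 3 and control 2 were both at 5.83, and its log2 fold change of 0.43 was not called (limma adjusted p = 0.083). With the replicate number as a block, Cpt1a and Acaa2 were both called (limma adjusted p = 0.0054 and 0.0497). They were also called without HO 3 (limma adjusted p = 0.020 and 0.044), and 9 genes in all were gained in both refits. The numbers were not taken to pair the mice. The log2 ratio of Ppara over Cpt1a was -2.19 ± 0.92 in HO and -0.32 ± 0.55 in control (SD, n = 4), and that of Ppara over Acaa2 was -0.96 ± 0.44 and 0.42 ± 0.22. The HO and control values of both ratios did not overlap. Acaa2 lay below the brightest negative control probe on all 8 arrays and Ppara on 7, and the part of background in these ratios was not tested. Pex11a, which takes part in the division of peroxisomes, had a log2 fold change of -0.11 (95% confidence interval -0.51 to 0.28). Gamt, which makes creatine, had one of -0.21 (-0.51 to 0.09). Both turned positive with 75th percentile scaling, median scaling and scaling to the linear probes, Pex11a at 0.40, 0.70 and 0.57 and Gamt at 0.11, 0.41 and 0.28, and both were called higher with median scaling (limma adjusted p = 0.015 and 0.046).

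Of the 5 genes of immunity and lipid transport, 1 fell and 4 were not called. H2-Q7 encodes a non-classical class I histocompatibility molecule of the Qa-2 group, and its family holds near-identical genes, so the probe may read several of them. It measured 7.69, 8.17, 8.41 and 8.41 in control and 6.36, 5.63, 7.11 and 6.60 in HO. The highest HO array stayed below the lowest control array, with HO 2 lowest. On HO 1, HO 2 and HO 4 H2-Q7 lay below the brightest negative control probe (7.12, 7.47 and 6.81). The part of background in its fall was not tested. The log2 fold change was -1.74 (SE 0.31, limma adjusted p = 0.0065), a 3.35-fold fall, and 1.98% of all probes tested fell further. With normexp at an offset of 50 or 16 it was -1.02 and -1.21, still called. The log2 ratio of H2-Q7 over Apoe was -1.87 ± 0.41 in HO and 0.25 ± 0.24 in control (SD, n = 4), with no overlap.

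Apoe itself, the lipoprotein component that macrophages also secrete, had a log2 fold change of 0.24 (95% confidence interval -0.34 to 0.82). Leaving out single arrays moved it between 0.05 (without HO 3) and 0.37 (without HO 1). Mzb1, an endoplasmic reticulum protein of marginal zone B cells and plasma cells, measured 5.33 ± 0.10 in control and 5.74 ± 0.17 in HO (SD, n = 4). The groups did not overlap, yet the log2 fold change of 0.41 had an adjusted p of 0.060 in limma and was not called. Gsdmd, which forms the membrane pores of pyroptosis, had a log2 fold change of -0.67 (limma adjusted p = 0.084) and was well above background on 4 control and 2 HO arrays. Gsdmd was called lower with 75th percentile, median and linear probe scaling, at -1.32, -1.02 and -1.15 (limma adjusted p = 0.032, 0.049 and 0.029), and without HO 3, at -0.87 (0.016). Il2, the T cell growth factor and the member on the immune list, measured 4.38, 4.32, 4.75 and 4.65 in control and 4.34, 4.35, 4.64 and 4.76 in HO. Il2 lay below the brightest negative control probe on all 8 arrays. Its groups lay over each other, with a log2 fold change of -0.01 (95% confidence interval -0.39 to 0.38). With 75th percentile, median and linear probe scaling it was -0.57, -0.27 and -0.39, not called (limma adjusted p = 0.099, 0.32 and 0.29).

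Of the 5 genes of the matrix, the cell membrane and growth factor signalling, 2 rose, none fell, 2 were not called and 1 was too dim to test. Hyal3, of the family of hyaluronidases that cut the matrix sugar hyaluronan, measured 6.18, 6.09, 5.99 and 6.24 in control and 6.87, 7.10, 6.92 and 6.99 in HO. These were among the tightest groups of the set and did not overlap. Hyal3 lay below the brightest negative control probe on 5 arrays, namely control 1, control 2, control 4, HO 1 and HO 2. The part of background in its rise was not tested. The log2 fold change was 0.84 (SE 0.13, limma adjusted p = 0.0048), and it lay between 0.78 and 0.90 with each array left out and between 0.43 (normexp, offset 50) and 1.03 over all alternatives.

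Bambi encodes a receptor-like protein without a kinase that dampens signalling by BMP and TGF-beta, the growth factors that drive bone formation. It measured 4.66, 4.62, 3.70 and 4.40 in control and 5.63, 5.78, 4.70 and 5.27 in HO. HO 3 lay just above the highest control array, at 4.70 against 4.66. The log2 fold change was 1.00 (SE 0.29, limma adjusted p = 0.032). The call was lost with 75th percentile scaling (0.55, adjusted p = 0.10), with scaling to the linear probes (0.72, adjusted p = 0.14), with normexp and an offset of 50 (0.27, adjusted p = 0.051), in the methods' t-test (adjusted p = 0.076), and without control 3 or 4 or HO 1, 2 or 4 (adjusted p = 0.062 to 0.083). Anxa8, an annexin that binds membrane phospholipids, had groups that did not overlap, a log2 fold change of -0.41 and an adjusted p of 0.060 in limma. Lhfp, a membrane protein, had a log2 fold change of -0.22 (95% confidence interval -0.66 to 0.22). It was -0.90 and called with 75th percentile scaling (limma adjusted p = 0.030), and 0.175 and not called with array weights (0.35). Cav2, which builds caveolae with caveolin 1, was not well above background on any array.

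In the group of stress and redox genes, which also holds Hspb7, 2 of 5 rose. Duox1 is an NADPH oxidase that releases hydrogen peroxide and is known from thyroid and airway epithelium. It measured 9.04, 8.78, 8.62 and 8.67 in control and 9.59, 9.96, 9.49 and 9.72 in HO. The groups did not overlap, with a log2 fold change of 0.91 (SE 0.16, limma adjusted p = 0.0068). With median scaling it was larger, at 1.56. Dnajc11, a mitochondrial protein of the DnaJ family, measured 2.80, 2.97, 2.91 and 2.84 in control and 3.58, 3.40, 3.37 and 3.35 in HO. Only 1 HO array and 3 control arrays were well above background. Its log2 fold change of 0.55 (limma adjusted p = 0.016) was close to the shift of the negative control probes between the groups, whose part in it was not tested. It turned to -0.41, -0.11 and -0.24 with 75th percentile scaling, median scaling and scaling to the linear probes. The call was also lost with normexp at either offset, without background correction, with 1 spot per probe, with an intensity trend and without HO 1 (adjusted p = 0.055 to 0.25). The peroxidase gene Prdx2 had groups that did not overlap, with a log2 fold change of 0.36 (limma adjusted p = 0.092). Gsta4, a glutathione transferase that clears lipid peroxidation products, had one of -0.30 (limma adjusted p = 0.35), which was -1.12, -0.82 and -0.94 with 75th percentile, median and linear probe scaling and not called (0.060, 0.10 and 0.051).

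Of 4 genes of vesicle traffic and autophagy, 1 rose and 3 were not called. Tm9sf1, a protein with several membrane spans in the endosome and Golgi system, measured 7.06, 6.66, 6.72 and 6.60 in control and 8.11, 8.04, 7.73 and 7.91 in HO. The gap between the groups, from 7.06 to 7.73, was wider than the range of either. Its log2 fold change of 1.19 (standard error 0.16) had the second smallest adjusted p of the set, 0.0035 in limma, after Hspb7, and it lay between 0.71 and 1.53 over all alternatives. Atg3, the enzyme that attaches LC3 to lipid in autophagy, had a log2 fold change of 0.42 (limma adjusted p = 0.23). Rab5a, the GTPase of early endosomes, had one of 0.13 and Uhrf1bp1l one of -0.34 (limma adjusted p = 0.65 and 0.13). Under the 3 other scalings Uhrf1bp1l was called lower, at -0.94, -0.64 and -0.76 (limma adjusted p = 0.0067, 0.014 and 0.038). Rab5a turned to -0.37, -0.066 and -0.19 under them and was not called (limma adjusted p = 0.12, 0.795 and 0.62).

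Among 6 genes of the nucleus and of RNA, Carhsp1 rose, 3 were not called and 2 were too dim to test. Carhsp1 is a cold shock domain protein that binds and stabilizes messenger RNA. It measured 4.66, 4.77, 4.21 and 4.65 in control and 5.78, 5.84, 5.49 and 5.68 in HO. Every HO array lay at least as high as 5.49, above the highest control array at 4.77. The log2 fold change was 1.12 (SE 0.17, limma adjusted p = 0.0044), and with normexp and an offset of 50 it was 0.34. Taf1a, a subunit of the RNA polymerase I initiation complex, had a log2 fold change of 0.23 (95% confidence interval -0.10 to 0.55). Alkbh4, a dioxygenase, had one of 0.04 (-0.39 to 0.46). Trp53rka, a kinase gene with a near copy in the genome, was well above background on all 4 control arrays and on no HO array. Its normalized values overlapped, at 2.98 ± 0.25 in control and 3.01 ± 0.61 in HO (SD, n = 4), so no fold is given. The cell cycle regulator E2f1 and the nuclear pore gene Nup50 were well above background on 3 and 2 control arrays and on no HO array, and the bound on either fold was under 1.

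Of the 10 members known mainly from other tissues, 4 rose and none fell. The median log2 fold change of the 9 given by name was 0.73, or 0.24 with normexp and an offset of 50, and 7 of the 10 were well above background on all 8 arrays, including the odorant receptors Olfr166 and Olfr1307. Whether these probes read their own transcripts was not tested. Lhx1, a transcription factor of kidney and head development, measured 8.43, 7.85, 8.32 and 8.05 in control and 8.68, 8.90, 9.05 and 8.96 in HO. Its log2 fold change was 0.73 (SE 0.17, limma adjusted p = 0.015), and without control 4 the adjusted p was 0.051. The change lay between 0.52 (normexp, offset 50) and 1.295 (median scaling) over all alternatives. Chgb, a protein of neuroendocrine secretory granules, measured 4.48, 4.02, 3.70 and 3.78 in control and 5.69, 5.47, 4.87 and 5.27 in HO. The groups were apart, and the log2 fold change was 1.33 (SE 0.23, limma adjusted p = 0.0065). With normexp and an offset of 50 it was 0.33.

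The largest fitted rise was that of Gabrg1, a subunit of the brain's GABA-A receptor, and it lay near the background. Gabrg1 measured 2.43, 1.69, 2.12 and 1.87 in control and 4.43, 4.38, 3.15 and 3.81 in HO, a log2 fold change of 1.92 (SE 0.30, limma adjusted p = 0.0047). It was well above background on 3 control arrays but on HO 1 and HO 4 only. The median negative control probe lay at 3.22, 3.46, 2.13 and 2.73 on HO arrays 1 to 4 and at 2.43, 2.56, 1.79 and 2.22 on the control arrays. Normexp at offset 50 gave 0.22 for Gabrg1, and 75th percentile scaling gave 1.05. Mbp, a protein of the myelin sheath, measured 3.31, 3.50, 3.26 and 3.75 in control and 4.49, 3.96, 4.01 and 4.11 in HO, a log2 fold change of 0.69 (limma adjusted p = 0.022), and was well above background on all arrays but HO 2. It was not called under any of the 3 scalings (-0.06 with 75th percentile, 0.24 with median and 0.115 with linear probe scaling), with normexp at an offset of 16 or 50 (0.19 and 0.11), without background correction (0.21), or without control 1, control 3 or HO 1 (adjusted p = 0.051 to 0.060). The background level moved with both changes, and its part in them was not tested.

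None of the genes of this kind that follow was called. Kcnn2, a calcium-activated potassium channel, measured 2.88, 2.39, 1.80 and 1.88 in control and 4.90, 4.54, 2.12 and 3.33 in HO. HO 3 fell within the control range, and the log2 fold change of 1.48 had the largest standard error of the set, 0.56 (limma adjusted p = 0.077). Scaling by the 75th percentile gave 0.51, by the median 0.81, and normexp at offset 50 gave 0.21. Tyr, the enzyme of melanin synthesis in skin, had HO values from 4.20 to 5.83 and control values from 3.39 to 4.94, with a log2 fold change of 0.92 (limma adjusted p = 0.13), or 0.24 with normexp and an offset of 50. Spats1, named for the testis, had a log2 fold change of 0.40 (limma adjusted p = 0.12). Olfr166 measured 10.43 ± 0.13 in control and 10.72 ± 0.22 in HO, and Olfr1307 measured 8.42 ± 0.33 and 8.54 ± 0.35 (SD, n = 4). Olfr166 and Olfr1307 had log2 fold changes of 0.29 and 0.12 (limma adjusted p = 0.20 and 0.72). Olfr166 was called higher under 3 other scalings, at 0.74, 1.04 and 0.92 with 75th percentile, median and linear probe scaling (limma adjusted p = 0.0084, 0.0039 and 0.027). Olfr1307 was called with median scaling, at 0.67 (limma adjusted p = 0.034).

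Of the remaining members, Rps4l, a transcribed pseudogene related to a ribosomal protein gene, had a log2 fold change of -0.05 (95% confidence interval -0.63 to 0.54). Cep41, a centrosome and cilium gene, was not well above background on any array. The 6 transcripts without a matched symbol are given by their accession in the array design. BC057074 measured 5.08, 4.82, 4.25 and 4.44 in control and 5.90, 5.86, 5.17 and 5.66 in HO, a log2 fold change of 1.00 (limma adjusted p = 0.016), with no overlap and HO 3 lowest in HO. It was 0.30 and 0.46 with normexp at an offset of 50 or 16. Its adjusted p was 0.075 with linear probe scaling and 0.053 without control 4. ENSMUST00000062524 measured 8.74, 8.41, 8.35 and 8.37 in control and 9.24, 9.55, 8.86 and 9.19 in HO, a log2 fold change of 0.74 (limma adjusted p = 0.017), which was 1.35 with median scaling, and its adjusted p was 0.051 without control 3 and 0.056 without control 4. XM_006525458 measured 10.44, 10.65, 10.35 and 10.60 in control and 9.95, 10.29, 9.94 and 10.04 in HO, a log2 fold change of -0.46 (limma adjusted p = 0.047). The groups were apart by little, and the direction turned to 0.29 with median scaling and 0.17 with linear probe scaling. The change was -0.01 with 75th percentile scaling. The call was lost without any of the control arrays, without HO 1, HO 3 or HO 4, without a filter and with an intensity trend (adjusted p = 0.050 to 0.12). AK004226 and X89687 had log2 fold changes of -0.36 and -0.15 (limma adjusted p = 0.29 and 0.54), and AK053689 was well above background on 3 control arrays and no HO array.

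**Figure D3:**
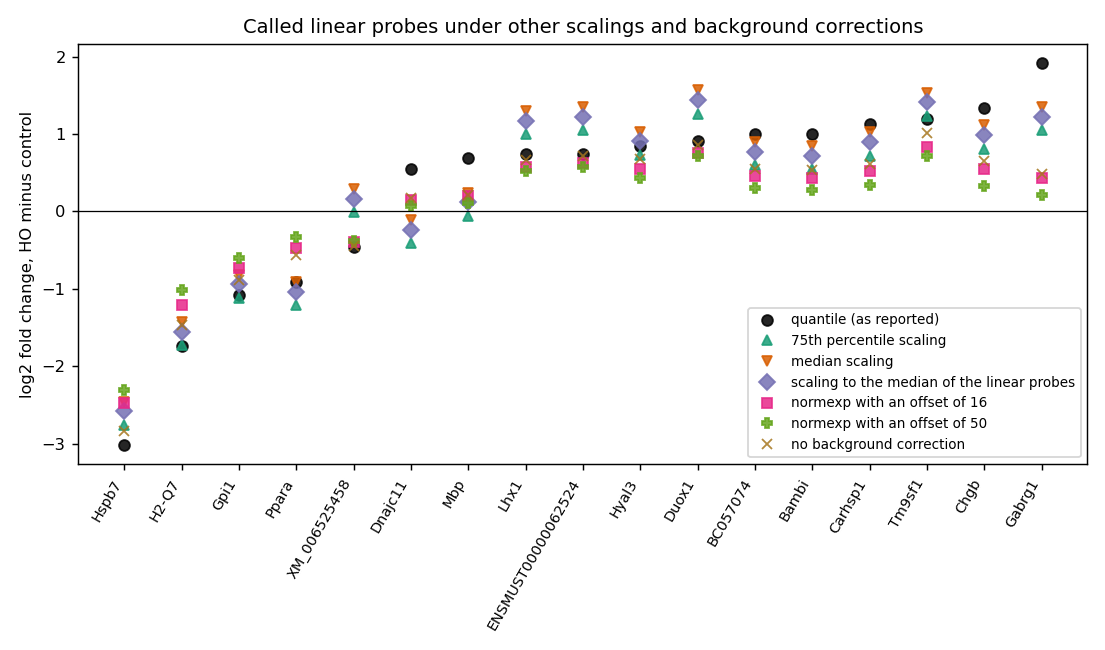
Log2 fold change, HO minus control, of the 17 called linear probes under quantile normalization (black circles, as reported), 3 other scalings and 3 other background treatments. Hspb7, H2-Q7, Gpi1 and Ppara stay below 0 and the probes from Lhx1 to Gabrg1 stay above 0, while XM_006525458, Dnajc11 and Mbp cross 0.

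The 10 spots of each probe give the noise within an array, which was set beside the spread between arrays of a group. With 1 array per mouse, that spread holds differences between mice together with those of digestion, labelling, hybridization and scan. The SD between replicate spots on an array had a median of 0.08 on the log2 scale over the 50 probes, and the SD between arrays of a group had a median of 0.25. The spread between arrays exceeded that between spots for 47 of the 50 probes. For Hspb7 these SDs were 0.06 between spots and 0.61 between arrays. For Hyal3 they were 0.06 and 0.10. Dnajc11 went the other way, with 0.29 between spots and 0.09 between arrays, and Cep41 and E2f1, both too dim to test, were the other exceptions.

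**Figure D4:**
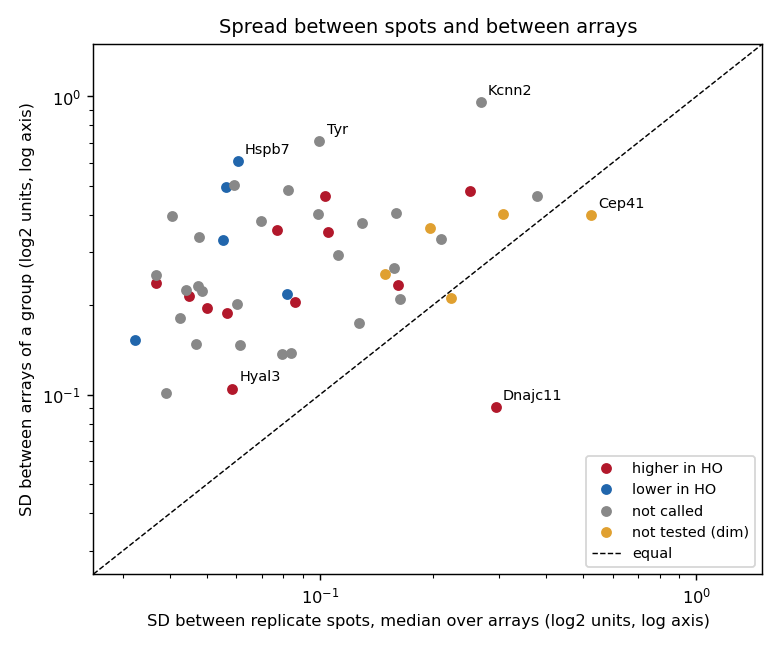
SD between arrays of a group (pooled over both groups) against the SD between replicate spots (median over arrays) for 49 of the 50 linear probes, both in log2 units on log axes, with the dashed line where they are equal. Most probes lie above the line, with Kcnn2 and Tyr highest, while Dnajc11 lies well below it.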

How the data were processed

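The members, gene lists and ratios were chosen with earlier results of these data known, and the role groups after the genes were seen. The authors extracted each 1-colour Agilent array (Cy3) with Feature Extraction 11.0.1.1 and deposited a background-corrected processed intensity per spot, not normalized between arrays. The deposited table of normalized values holds no linear probe and was not used. Spots marked as outliers were left out, the log2 intensities of a probe's spots were averaged, and circRNA and linear probes were quantile normalized together, as the methods name. A probe was well above background on an array if at least 50% of its spots were, and probes with this on at least 4 of 8 arrays were tested with limma 3.58.1 in R 4.3.3 (lmFit, eBayes, no covariate, Benjamini-Hochberg adjustment). Gene names come from RefSeq accessions of GRCm38.p6. Every linear transcript probe enters the counts, and 1 is not reported here by name. Values per array are given for probes called at an adjusted p of at most 0.05 and for those on a gene list, and for some others. The fit was run on simulated data with independent errors and known changes added. That simulation held no effect of slide row, background or array, so it cannot speak to these. The precision is limited by 4 arrays per group. The methods give 4 mice per group and the labels number the samples, and p-values measure the spread between these samples. Alternatives were 75th percentile, median and linear probe scaling, normexp (offsets 50 and 16), no background correction, other filters, outlier spots kept, other spot summaries, other tests and thresholds, leaving out single arrays and a replicate block.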

Additional observations from a re-analysis of the deposited data

Results flagged for a closer look

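Among 102 sets of 4 arrays of a group, 5 had an array set well apart from the rest, where chance gives about 1 in 20, and 4 of the 5 were control 1. For Hspb7, control 1 lay at 10.03 against 10.70 to 10.81 on the other control arrays, with 0.86 of the range taken up by the gap. For Pex11a it lay at 10.57 against 10.80 to 10.85 (gap 0.831). It was the highest control array for ENSMUST00000062524, at 8.74 against 8.35 to 8.41 (gap 0.844). It also had the fewest linear probes well above background, 42 against 47 to 48 (gap 0.833). HO 2 was the lowest HO array for X89687, at 6.12 against 6.67 to 6.73 (gap 0.905). Without control 1, Hspb7 had a log2 fold change of -3.21 and ENSMUST00000062524 one of 0.84. Without HO 2, X89687 had one of -0.0037, against -0.15 with all arrays.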

How the results depend on the processing

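Of the 17 called genes, Hspb7, H2-Q7, Gpi1, Ppara, Hyal3, Duox1, Carhsp1, Tm9sf1, Chgb and Gabrg1 kept an adjusted p under 0.05 and their direction in all of the 25 refits in which they were tested, and all but Ppara, Hyal3 and Duox1 also passed the 2-fold threshold. The count of 17 calls moved to 32 with array weights, to 9 at the 2-fold threshold and to 26 with the replicate number as a block, and it lay between 11 and 25 with each array left out. The share called over all probes moved from 28.0% to 55.8% with array weights and 44.8% with the block. Gsdmd, Anxa8, Spats1, Mzb1, Atg3, Acaa2, Cpt1a, Tyr and Kcnn2 were gained with the block (limma adjusted p = 0.0054 to 0.050) and also without HO 3 (0.0056 to 0.044). Same-numbered arrays deviated together with correlations of 0.466, 0.383 and 0.729 for numbers 1 to 3 and 0.0875 for number 4. The paper calls the tissues pairs, but by its methods separate mice were divided at random, and the labels name no shared litter or day. The numbers were therefore not taken to pair the mice, and not every array correlated best with its own number. The linear probes' median log2 fold change of 0.23 rose to 0.41 under median scaling. It dropped to 0.11 when arrays were scaled by their 75th percentile. Normexp lowered it as well, to 0.09 (offset 50) or 0.14 (offset 16). Over the refits that each omitted 1 array, it ranged from 0.16 to 0.27. The linear minus circRNA difference of 0.12 between the groups lay between 0.07 and 0.21 with each array left out. The direction turned as follows. With 75th percentile scaling the log2 fold changes became 0.11 for Gamt, 0.40 for Pex11a, -0.37 for Rab5a, -0.41 for Dnajc11 and -0.061 for Mbp. With median scaling they became 0.29 for XM_006525458, 0.41 for Gamt, 0.056 for X89687, 0.70 for Pex11a, -0.066 for Rab5a and -0.11 for Dnajc11. With scaling to the linear probes they became 0.17 for XM_006525458, 0.28 for Gamt, 0.57 for Pex11a, -0.19 for Rab5a and -0.24 for Dnajc11. Among other gained calls were Lhfp (-0.90) and Anxa8 (-0.55) with 75th percentile scaling and Apoe (0.69), Prdx2 (0.69) and Spats1 (0.81) with median scaling, AK004226 with 1 spot per probe (-0.70), and Anxa8 and Mzb1 with the filter on all 8 arrays, with the prior of the linear probes and in the methods' t-test (adjusted p = 0.035 for both). These scalings moved the median of all probes from 0.05 to -0.16, 0.14 and 0.02. Without background correction Il2 became 0.0036, and with outlier spots kept Il2 became 0.00021. With 1 spot per probe Rps4l became 0.064 and Il2 0.081. With array weights Lhfp became 0.175, Il2 0.16 and Alkbh4 -0.11. With each array left out, the sign turned for Il2 (-0.085 to 0.071, positive without control 3, control 4, HO 1 or HO 2), Rps4l (-0.18 to 0.18, positive without control 2, control 4 or HO 3), Alkbh4 (-0.082 to 0.14, negative without control 3 or HO 2), Rab5a (-0.0050 to 0.27, negative without HO 1) and Olfr1307 (-0.012 to 0.26, negative without HO 3). The causes were not tested. HO 3 was the only array of its scan, so the scan as a block equals leaving it out. Dim probes were limited by their signal over background.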

Other observations

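The arrays also hold 15 custom probes with 10 spots each that name no transcript. When these and the control probes were normalized and tested together with the others, which was added after the data were seen, 14 of the 15 were well above background on all 8 arrays, 4 were higher and 1 was lower in HO (limma, adjusted p up to 0.05), and their log2 fold changes lay between -1.27 and 1.41. In the same fit 6 of the 15 negative control probes passed the filter, of which 2 were called higher and 1 lower, with a median log2 fold change of 0.55 over the 6. Of the 14 circRNA control probes, 1 was called higher and 11 lower, with a median of -1.27. Over all 12893 probes tested in this fit, 28.1% were called in either direction.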
